A study of Mus musculus with 18 samples.

Results

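Gata4, Gata6, Hand1 and Foxf1 are 4 transcription factor genes of the early mesoderm and endoderm, and they are described here across single cells of the gastrulating mouse embryo. They were selected by name, with earlier results of these data known, as 4 of the 22997 nuclear genes with a row in every count table. Their levels were read in cells grouped by 2 markers, Mesp1 and Foxa2: Mesp1 cells held a transcript of Mesp1 and none of Foxa2, Foxa2 cells the reverse, and the others held both or neither marker. The study sequenced single cells of C57BL/6 wild-type embryos at embryonic day 6.75 (E6.75) and day 7.5 (E7.5), in 6 and 12 libraries of 96 cells each. No group carried a mutation or received a treatment.

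At E6.75 the extraembryonic part of each embryo had been removed, embryos were dissociated singly, and cells were picked by hand and processed by CEL-Seq2. At E7.5 embryos were cut beneath the chorion so that extraembryonic mesoderm was kept, 1 or 2 litters were pooled, and cells were flow-sorted and processed by mCEL-Seq2, a miniaturized form of the same chemistry. Both chemistries count the 3' ends of transcripts by molecular identifiers. The stage, the way of collecting cells and the protocol therefore changed together and cannot be told apart. The labels do not say that libraries came from separate animals, so each p-value measures only the spread between these libraries. The series text speaks of 576 and 1172 cells, and the tables hold 576 and 1152 used barcodes.

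GATA4 and GATA6 are zinc-finger factors that bind the same DNA motif and are required in visceral endoderm, the epithelium around the epiblast, and later in heart and gut progenitors. HAND1 is a basic helix-loop-helix factor of extraembryonic mesoderm, trophoblast and the lateral plate that forms heart. FOXF1 is a forkhead factor of extraembryonic and lateral plate mesoderm, and BMP signalling is a known inducer of the lateral plate programme. MESP1 marks nascent mesoderm leaving the primitive streak, and FOXA2 marks definitive endoderm, the node and the anterior streak.

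In GENCODE M21 (GRCm38), Gata4 (ENSMUSG00000021944) lay on chromosome 14 from 63198922 to 63271692 on the minus strand, and Gata6 (ENSMUSG00000005836) on chromosome 18 from 11052064 to 11085635 on the plus strand. Hand1 (ENSMUSG00000037335) lay on chromosome 11 from 57828705 to 57832818 on the minus strand. Foxf1 (ENSMUSG00000042812), a gene of 2 exons, lay on chromosome 8 from 121084386 to 121088144 on the plus strand. Foxf1 lies wholly inside Gm20388, an annotated gene on the same strand that was not analysed here, so that reads of both cannot be told apart. Gata6 shares 504 bases with the antisense transcript 1010001N08Rik, which had 15 transcripts in all kept cells.

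A cell was kept when it held at least 2000 transcripts of nuclear genes, which left 543 cells at E6.75 (85 to 96 a library) and 429 at E7.5 (15 to 71 a library). E7.5 replicate 5 held 3042 transcripts in all and kept 0 cells, so 11 E7.5 libraries were used. Nuclear transcripts per library ran from 2933395 to 5493791 at E6.75 and from 518343 to 2627269 in the E7.5 libraries used, and the mitochondrial share from 13.7% to 18.7% and from 9.08% to 14.4%. Cells with at least 20 transcripts of Ttr, Apoa1 and Spink1 together per 10000 were set apart as visceral endoderm, 39 at E6.75 and 2 at E7.5. The cell nearest the threshold held 22.1 inside it and 17.8 outside it. Of the 41 cells inside, 21 held 20 to 50 per 10000, and 4 cells outside held 10 to 20. Barcode columns repeat from plate to plate, so a shared column number does not mark a shared cell.

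Outside visceral endoderm, the levels of Foxf1 and Hand1 differed most between the stages, that of Gata6 differed less, and the difference of Gata4 did not pass the test. Levels are given as CPM, the count of a gene scaled to 1000000 nuclear transcripts, summed over the cells of a class in each library, with the mean ± SD over libraries. A sum of this kind cannot tell more cells with the gene from more transcripts per cell.

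Foxf1 was at 0 in E6.75 replicates 1_10 and 1_11 and at 0.347, 0.382, 0.602 and 0.311 CPM in replicates 2_12, 2_13, 2_14 and 2_9. In the 11 E7.5 libraries it ran from 10.8 to 60.7 CPM, with a median of 30.6. Every E7.5 library lay above every E6.75 library. The means were 0.274 ± 0.235 (SD, n = 6) and 31.7 ± 16.9 (SD, n = 11), a log2 fold change of 6.41 (SE 0.48, adjusted p = 2.80e-09 by edgeR's quasi-likelihood test with Benjamini-Hochberg adjustment). As counts, this was 7 of 22634847 transcripts at E6.75 and 467 of 13604147 at E7.5, a ratio of 111.0 with an exact 95% interval of 53.4 to 277.6 that covers counting error only.

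Hand1 at E6.75 was at 6.09, 5.36, 35.8, 4.39, 17.8 and 0.622 CPM in replicates 1_10, 1_11, 2_12, 2_13, 2_14 and 2_9. At E7.5 it ran from 8.04 to 300.8 CPM with a median of 126.7. Replicate 8, with 15 kept cells, was the lowest E7.5 library and the only one to fall among the E6.75 libraries. The means were 11.7 ± 13.2 (SD, n = 6) and 134.6 ± 78.8 (SD, n = 11), with a log2 fold change of 3.49 (SE 0.54, adjusted p = 2.94e-05 by edgeR).

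Gata6 split the E6.75 libraries, with 25.4 and 27.1 CPM in replicates 2_13 and 2_14 and 0.676, 1.19, 0.695 and 2.18 CPM in replicates 1_10, 1_11, 2_12 and 2_9. At E7.5 it ran from 12.9 to 67.3 CPM with a median of 40.1. Replicates 2_13 and 2_14 lay among the E7.5 libraries, and the other E6.75 libraries lay below all of them. The log2 fold change was 1.83 (SE 0.56, adjusted p = 0.0121 by edgeR), and 1.36 (adjusted p = 0.0580) with the E6.75 libraries whose label begins with 2 alone.

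Gata4 followed the same split, at 41.6 and 30.5 CPM in replicates 2_13 and 2_14 and at 1.69, 0.596, 6.95 and 5.91 CPM in replicates 1_10, 1_11, 2_12 and 2_9. At E7.5 it ran from 4.83 to 67.6 CPM with a median of 45.6, so the stages overlapped. The log2 fold change was 1.12 (SE 0.55, adjusted p = 0.112 by edgeR) and reached 1.77 (adjusted p = 0.0197) without replicate 2_13. Replicates 2_13 and 2_14 held 26 of the 29 E6.75 Mesp1 cells. They were also the deepest E6.75 libraries, with medians of 54686 and 53967 transcripts a kept cell against 22331 to 35382 in the others. Classes rest on detection of a transcript, and the part of depth in this split was not tested. Of 9976 genes tested between the stages, 39.7% passed and 19.6% were higher at E7.5, so a difference past the threshold was common. Of the 4 genes, 3 passed, all higher at E7.5.

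**Figure D1:**
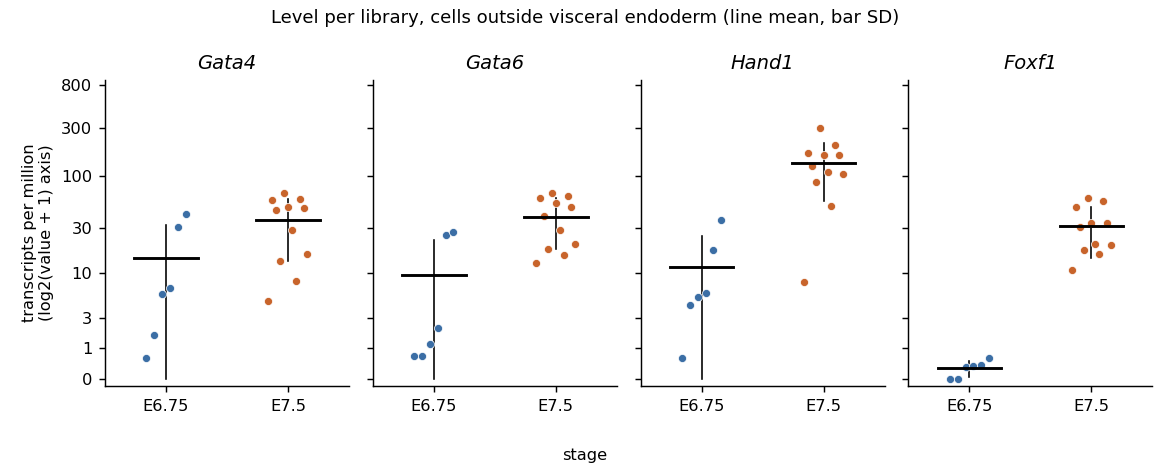
Level of each gene per library (points), outside visceral endoderm, at E6.75 (6 libraries, blue) and E7.5 (11 libraries, orange), in CPM on a log2(value + 1) axis; lines are means and bars SD. Foxf1 at E7.5 starts at 10.8 CPM, above all E6.75 libraries, while the 2 E6.75 libraries highest in Gata4 and Gata6 lie among the E7.5 libraries.

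The share of cells with a transcript moved the same way, but it depends on depth, and the median cell outside visceral endoderm held 41774 transcripts at E6.75 and 31203 at E7.5. As means over libraries, Foxf1 was detected in 1.17% and 23.1% of cells, Hand1 in 9.13% and 45.0%, Gata6 in 10.0% and 35.3%, and Gata4 in 16.2% and 34.6%. When every cell was thinned to 2000 transcripts, Foxf1 was left in 0% of E6.75 cells and 6.15% of E7.5 cells (exact two-sided permutation test over libraries, p = 0.0140), and Hand1 in 1.37% and 17.5% (p = 0.00137). The thinned shares of Gata6 (2.88% and 7.40%, exact permutation p = 0.0720) and of Gata4 (2.28% and 4.11%, exact permutation p = 0.339) did not pass. The smallest p that this test allows is 8.08e-05.

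Among the genes around them, 13 of the 15 tested genes of a lateral and extraembryonic mesoderm list rose from E6.75 to E7.5 and 2 fell, with a median log2 fold change of 2.55 beside 0.01 over all genes. That list named 24 genes, and the others did not pass the filter on low counts. This and the other gene lists were chosen with earlier results of these data known. Pmp22, Spin2c, Msx2 and Bmp4 of this list are among the genes most like Hand1 in these cells. Counts over the lists are therefore description and not independent support. Hand2, the close relative of Hand1, rose by 5.24 (adjusted p = 3.88e-06), and Zfpm1, which encodes the GATA cofactor FOG1, rose by 1.80 (adjusted p = 1.61e-05). Of a list of 14 GATA, HAND and FOXF relatives and partners, 9 were tested and 6 rose. Of 19 BMP pathway genes, 18 were tested, 11 rose and 1 fell, and Bmp4, a ligand that patterns the posterior embryo, rose by 1.97 (adjusted p = 0.000819).

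At E6.75, Gata4 was highest in visceral endoderm, Gata6 was high in visceral endoderm and in Mesp1 cells, and no Hand1 transcript was found in visceral endoderm. Gata4 was at 267, 182, 424, 265, 492.8 and 162 CPM in the visceral endoderm of replicates 1_10, 1_11, 2_12, 2_13, 2_14 and 2_9. Cells of the same libraries with neither marker held 0.622 to 5.09 CPM, with a median of 3.25. The 2 ranges were far apart in each of the 6 libraries. The means were 299 ± 133 and 2.95 ± 1.80 (SD, n = 6 each), a log2 fold change of 6.57 (SE 0.33, adjusted p = 3.06e-19 by edgeR).

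Gata6 in visceral endoderm was at 110, 126, 99.9, 61.2, 128 and 45.9 CPM in the same order of replicates, against 0 to 1.62 CPM in cells with neither marker. It too was higher in 6 of 6 libraries, with means of 95.1 ± 34.2 and 0.807 ± 0.609 (SD, n = 6 each) and a log2 fold change of 6.52 (SE 0.52, adjusted p = 3.52e-13 by edgeR). In this comparison 43.1% of 9067 genes passed, 21.8% with the higher level in visceral endoderm. Against Foxa2 cells, where 39.6% of genes passed and 20% were higher, the log2 fold changes were 4.57 for Gata4 (adjusted p = 1.11e-14) and 2.97 for Gata6 (adjusted p = 7.17e-07).

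A Gata4 transcript was found in 34 of 39 visceral endoderm cells (87.2%) and a Gata6 transcript in 22 (56.4%), at a median depth of 23368 transcripts a cell. Visceral endoderm made up 7.18% of the E6.75 cells and held 38.5% of their Gata4 transcripts and 20.9% of their Gata6 transcripts. The 14 visceral endoderm markers together stood at 10660 to 15990 CPM in these cells and at 117.7 to 234.4 CPM in cells with neither marker. Ttr, Apoa1 and Spink1, which define the class, are among the 14, so this gap follows in part from the definition and is description.

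Hand1 was found in 0 of the 39 visceral endoderm cells, which by a floor of 3 counts allows a transcript to be found in up to 7.69% of such cells at this depth and does not limit the share that expresses the gene. Among their 998526 transcripts a count of 0 allows up to 3.004 CPM, taking 3 counts over the class as the floor. On that floor, Hand1 was at least 14.1-fold higher in E6.75 Mesp1 cells (42.3 CPM over all of them) and at least 3.61-fold higher in cells with neither marker (10.9 CPM). Both bounds rested largely on single libraries. In Mesp1 cells 61 of the 69 transcripts were in replicate 2_14, and the bound was 2.16-fold without that library and 9.34-fold without 2_9. In cells with neither marker 103 of the 163 were in replicate 2_12, and the bound was 1.51-fold without it and 2.40-fold without 2_9. Of these 163 transcripts, 132 were in 14 cells that also held extraembryonic ectoderm genes (described below), and the 358 other cells held 31. No bound was taken without those 14 cells, so the 3.61-fold bound does not describe the 358 others. Leaving out libraries here was chosen after seeing the data. The fitted difference from cells with neither marker did not pass the test by edgeR (adjusted p = 0.0989), but passed without the filter on low counts (adjusted p = 0.00616) and by DESeq2 (adjusted p = 1.44e-28). Foxf1 had 1 transcript in visceral endoderm, in replicate 2_9, and did not pass the filter on low counts in any E6.75 comparison. Without the filter none of its E6.75 differences passed the test.

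Among the E6.75 cells outside visceral endoderm, Gata4 and Gata6 were highest in the Mesp1 cells. Those 29 cells came from 3 libraries, with 15 cells in replicate 2_13, 11 in 2_14 and 3 in 2_9. Gata4 was at 140, 191.8 and 0 CPM in them, in that order, and Gata6 at 116, 136 and 0 CPM. The 3 cells of replicate 2_9 held neither gene, so the high values came from 2 libraries.

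The 82 Foxa2 cells held Gata4 at 5.86, 0, 24.0, 16.2, 12.1 and 7.96 CPM in replicates 1_10, 1_11, 2_12, 2_13, 2_14 and 2_9. Gata6 in the same cells was at 2.93, 0, 3.42, 7.18, 39.2 and 3.41 CPM. The value of 39.2 in replicate 2_14 rested on 39 transcripts, of which 37 came from a single cell. In replicates 2_13 and 2_14 the Mesp1 cells were above every Foxa2 value for both genes.

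Mesp1 cells exceeded Foxa2 cells by a log2 fold change of 3.12 for Gata4 (SE 0.36, adjusted p = 2.69e-07 by edgeR) and of 2.80 for Gata6 (SE 0.42, adjusted p = 3.50e-05), in 2 of the 3 libraries that held both classes. In this comparison 0.893% of 9070 genes passed and 0.750% were higher in Mesp1 cells. DESeq2 did not call Gata6 (2.76, adjusted p = 0.0686). Against cells with neither marker, where 2.17% of genes passed and 1.54% were higher, the log2 fold changes were 5.12 for Gata4 (adjusted p = 8.19e-13) and 6.35 for Gata6 (adjusted p = 1.25e-11). Kdr, the VEGF receptor of blood and endothelial progenitors, was also higher in Mesp1 cells than in Foxa2 cells, by 4.98 (adjusted p = 0.000264).

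Foxa2 cells in turn exceeded cells with neither marker, with a log2 fold change of 2.00 for Gata4 (SE 0.45, adjusted p = 0.0227 by edgeR) and of 3.55 for Gata6 (SE 0.57, adjusted p = 0.000228), in 5 of 6 libraries each, where 0.419% of genes passed and 0.386% were higher. Single libraries decided both calls: without replicate 2_14 Gata6 was at 2.64 (adjusted p = 0.105), and Gata4 was at 1.70 (adjusted p = 0.253) without replicate 2_12 and at 1.94 (adjusted p = 0.0665) without replicate 1_10. DESeq2 did not call Gata4 (1.90, adjusted p = 0.403). The summed visceral endoderm markers were at 71.9 to 296.8 CPM in the Foxa2 cells over the 6 libraries, and their part in the result was not tested.

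The median E6.75 cell held 61109 transcripts among Mesp1 cells, 54464 among Foxa2 cells and 36436 among cells with neither marker, so the shares of cells come from unequal depths. Gata4 was found in 14 of 29, 25 of 82 and 33 of 372 of these cells, and in the last class 26 of the 33 cells held a single transcript. Gata6 was found in 14, 13 and 13 cells, and each of the 13 cells with neither marker held 1 transcript. In the Mesp1 cells that had them, the median was 11.5 transcripts of Gata4 and 11 of Gata6. By means over libraries, the order of Gata4 levels at E6.75 was visceral endoderm (299 CPM), Mesp1 cells (111), Foxa2 cells and cells with neither marker (2.95). For Gata6, Mesp1 cells and visceral endoderm had no fixed order. The means were 83.7 and 95.1 CPM, but 126 and 105 CPM without replicate 2_9, and the levels over all cells of the class were 107.8 and 75.1 CPM. Within replicates 2_13 and 2_14 Gata6 was higher in Mesp1 cells, and Foxa2 cells and cells with neither marker came after both classes. The values of neighbouring classes overlapped at each step, and visceral endoderm was not tested against Mesp1 cells.

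Hand1 at E6.75 was highest in the Mesp1 cells of replicate 2_14, followed by the cells with neither marker of replicate 2_12 (44.9 CPM). It was at 8.60, 101 and 4.68 CPM in the Mesp1 cells of replicates 2_13, 2_14 and 2_9, and among Foxa2 cells it appeared only in replicate 2_13, at 5.99 CPM. Of the 10 transcripts behind that last value, 7 were in 2 cells that also held extraembryonic ectoderm genes, described below. The difference between Mesp1 and Foxa2 cells was 4.60 on the log2 scale (SE 0.80, adjusted p = 0.000516 by edgeR), but 2.31 (adjusted p = 0.786) without replicate 2_14 and 5.18 (adjusted p = 0.346) by DESeq2. Likewise the difference from cells with neither marker was 2.92 (adjusted p = 0.0141), but 0.70 (adjusted p = 0.962) without replicate 2_14 and 2.37 (adjusted p = 0.827) by DESeq2.

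Cells with neither marker held 163 of the 253 Hand1 transcripts of E6.75 (64.4%), in 29 of 372 cells, and made up 68.5% of the cells. The same class held 6.07% of the Gata4 and 3.63% of the Gata6 transcripts. Of the 163 Hand1 transcripts, 132 were in 14 cells that also held transcripts of at least 3 of 6 extraembryonic ectoderm genes (Elf5, Cdx2, Tfap2c, Esrrb, Rhox5 and Ascl2), although the extraembryonic part had been cut away. Hand1 was found in 12 of those 14 cells and in 17 of the 358 others, which held 31 transcripts. Replicate 2_12 alone supplied 100 of the 132. In Foxa2 cells 7 of the 10 Hand1 transcripts were in cells with at least 3 of the 6 genes. The same held for 8 of 11 in cells with both markers and for 14 of 69 in Mesp1 cells.

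Elf5, a trophoblast stem cell factor, was at 66.9 CPM in the cells of this class with Hand1 and at 0.292 CPM in those without, at median depths of 40647 and 36378 transcripts. Bmp4, which extraembryonic ectoderm secretes, was at 173.8 and 8.31 CPM. A list of 8 markers, the 6 genes with Sox3 and Fgfr2, summed to 787 CPM in the first (87.0 to 1948 over the 4 libraries with at least 3 such cells). In the second it summed to 103 CPM (77.1 to 163.4 over 6 libraries). There the 6 genes ran from 0.219 CPM (Cdx2) to 4.01 CPM (Rhox5), so most of the 103 CPM came from Sox3 and Fgfr2. That sum is no level of extraembryonic ectoderm. Without the cells that held at least 3 of the 6 genes, a choice made after seeing the data, the stage difference of Hand1 was 5.01 on the log2 scale (adjusted p = 5.79e-07 by edgeR), larger than the 3.49 with them.

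**Figure D2:**
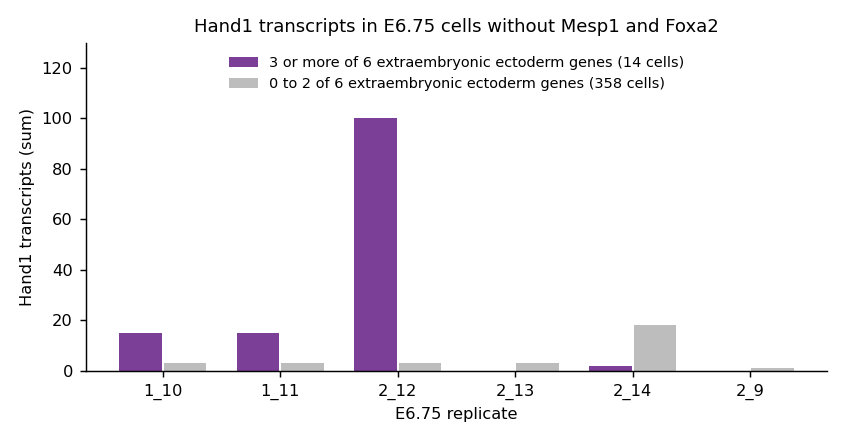
Hand1 transcripts summed over E6.75 cells without Mesp1 and Foxa2 in each replicate, for the 14 cells with at least 3 of 6 extraembryonic ectoderm genes (purple) and the 358 other cells (grey). Replicate 2_12 holds 100 of the 132 transcripts in the purple bars, and the grey bars sum to 31.

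At E7.5 all 4 genes were high in the 125 Mesp1 cells and in cells with neither marker and no Sox2, an epiblast and ectoderm gene. They were lower in cells with neither marker but with Sox2, called Sox2 cells here. In the Mesp1 cells of 11 libraries, Gata4 ran from 12.2 to 103.7 CPM (median 65.2), Gata6 from 16.3 to 108.5 (median 43.0), Hand1 from 0 to 293.6 (median 185.2) and Foxf1 from 15.0 to 109.5 (median 44.3). Hand1 was at 0 in the Mesp1 cells of replicates 8 (7 cells) and 12 (3 cells) and at or above 145.4 CPM in the other nine libraries. Foxf1 was present in the Mesp1 cells of all 11.

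In the 48 Foxa2 cells, Foxf1 had 1 transcript among 1796795, against 282 among 4890223 in the Mesp1 cells, a ratio of 103.6 with an exact 95% interval of 18.4 to 4107. It was higher in Mesp1 cells in 8 of 8 libraries that held both classes, with means of 56.8 ± 32.3 (SD, n = 11) and 0.673 ± 1.90 CPM (SD, n = 8) and a log2 fold change of 6.08 (SE 0.69, adjusted p = 7.25e-09 by edgeR). The 2 ranges did not overlap, since the highest Foxa2 library stood at 5.39 CPM. Foxf1 was found in 1 of the 48 Foxa2 cells (2.08%) and in 48 of the 125 Mesp1 cells (38.4%), at median depths of 35844 and 39958 transcripts.

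Hand1 and Gata4 differed in the same direction. Hand1 was at 166 ± 93.7 CPM in Mesp1 cells (SD, n = 11) and at 11.4 ± 11.4 CPM in Foxa2 cells (SD, n = 8), higher in 6 of 8 libraries, with a log2 fold change of 3.45 (SE 0.53, adjusted p = 5.71e-06 by edgeR). Gata4 was at 59.5 ± 31.8 and 12.1 ± 10.0 CPM in the same libraries, higher in 7 of 8, with a log2 fold change of 2.18 (SE 0.44, adjusted p = 0.000483). In both genes some Mesp1 libraries fell within the Foxa2 range.

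Gata6 was present in the Foxa2 cells of all 8 libraries that held at least 3 of them. It was at 54.0 ± 26.5 CPM in Mesp1 cells (SD, n = 11) and at 24.9 ± 13.9 CPM in Foxa2 cells (SD, n = 8), where it ran from 10.9 to 48.0 CPM. The log2 fold change of 1.13 (SE 0.42) did not pass the test (adjusted p = 0.0933 by edgeR), and 5 of 8 libraries were higher in Mesp1 cells. Without replicate 7 the value was 1.55 (adjusted p = 0.0404) and without replicate 12 it was 1.36 (adjusted p = 0.0497), and without the filter on low counts 1.21 (adjusted p = 0.00327). In this comparison 8.25% of 7082 genes passed and 3.22% were higher in Mesp1 cells.

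Foxa2 cells exceeded Sox2 cells in Gata6, with a log2 fold change of 2.12 (SE 0.56, adjusted p = 0.0191 by edgeR), higher in 8 of 8 libraries, where 3.76% of 7081 genes passed and 2.77% were higher. The call was lost without replicate 12 (1.90, adjusted p = 0.0742), replicate 4 (1.91, adjusted p = 0.0772) or replicate 7 (2.09, adjusted p = 0.0955). Gata4 (1.01, adjusted p = 0.472), Hand1 (-1.70, adjusted p = 0.123) and Foxf1 (-1.81, adjusted p = 0.496) did not pass in that comparison. Without the filter on low counts Hand1 passed, lower in Foxa2 cells (-1.75, adjusted p = 1.00e-06). Hand1 in Foxa2 cells was found in 16 of 48 cells (33.3%), 10 of them with a single transcript, and after thinning in 1 of 48.

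Mesp1 cells exceeded the Sox2 cells in all 4 genes, where 10.2% of genes passed and 4.96% were higher. The log2 fold changes were 3.19 for Gata4 (adjusted p = 1.06e-08), 3.25 for Gata6 (adjusted p = 1.23e-07), 1.76 for Hand1 (adjusted p = 9.81e-05) and 4.27 for Foxf1 (adjusted p = 1.56e-11). Gata4, Gata6 and Foxf1 were higher in 10 of 10 libraries and Hand1 in 8 of 10. Hand1 kept 54.8 ± 37.8 CPM in the Sox2 cells (SD, n = 10; 7.75 to 123.6 CPM), where Gata4, Gata6 and Foxf1 had means of 2.31 to 4.98 CPM. Of the 6 extraembryonic ectoderm genes, Rhox5, Elf5, Esrrb and Tfap2c were higher there than in cells with neither marker and no Sox2. Rhox5 was at 51.0 and 5.22 CPM, while Cdx2 and Ascl2 were lower. Among all E7.5 cells with neither marker, those with Hand1 held 217 Rhox5, 30 Elf5 and 51 Esrrb transcripts. Those without it held 8, 1 and 5, and Ascl2 was not higher with Hand1. The part of cells with these genes in the Hand1 level was not tested.

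Between the Mesp1 cells and cells with neither marker and no Sox2, no difference of the 4 genes passed with the filter on low counts, while Hand1 passed without it. In the cells without Sox2, Gata4 was at 45.3 ± 36.9 CPM, Gata6 at 55.5 ± 44.6, Hand1 at 301 ± 247 and Foxf1 at 47.3 ± 40.0 (SD, n = 9 libraries each), with Hand1 ranging from 75.3 to 762 CPM. Mesp1 cells minus these cells gave log2 fold changes of 0.68 for Gata4 (adjusted p = 0.332), -0.11 for Gata6 (SE 0.32, adjusted p = 0.973), -0.76 for Hand1 (SE 0.29, adjusted p = 0.197) and -0.04 for Foxf1 (SE 0.25, adjusted p = 0.993). None of these passed by edgeR, in a comparison where 2.51% of genes did. Without the filter Hand1 was lower in Mesp1 cells by edgeR (-0.69, adjusted p = 0.000272). Of 12 tested genes of the lateral and extraembryonic mesoderm list, 6 were lower in Mesp1 cells and 0 higher. That list was chosen with earlier results of these data known. At an unadjusted p under 0.05 Gata4 and Hand1 would pass (p = 0.0289 and 0.0106), and DESeq2 called none of the 4.

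These cells without Sox2 exceeded those with Sox2 in 8 of 8 libraries for each gene. The log2 fold changes were 2.51 for Gata4 (adjusted p = 5.42e-05), 3.36 for Gata6 (adjusted p = 8.21e-07), 2.52 for Hand1 (adjusted p = 7.77e-07) and 4.31 for Foxf1 (adjusted p = 1.04e-09 by edgeR), where 8.26% of genes passed and 4.51% were higher. The blood and endothelium markers summed to 706 CPM in the cells without Sox2 (0 to 1148 over 9 libraries) and to 35.0 CPM in those with it (21.5 to 42.4 over 10), and their part in the result was not tested. The median cell held 15675 transcripts without Sox2 and 30436 with it, and the part of depth in this split was not tested.

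**Figure D3:**
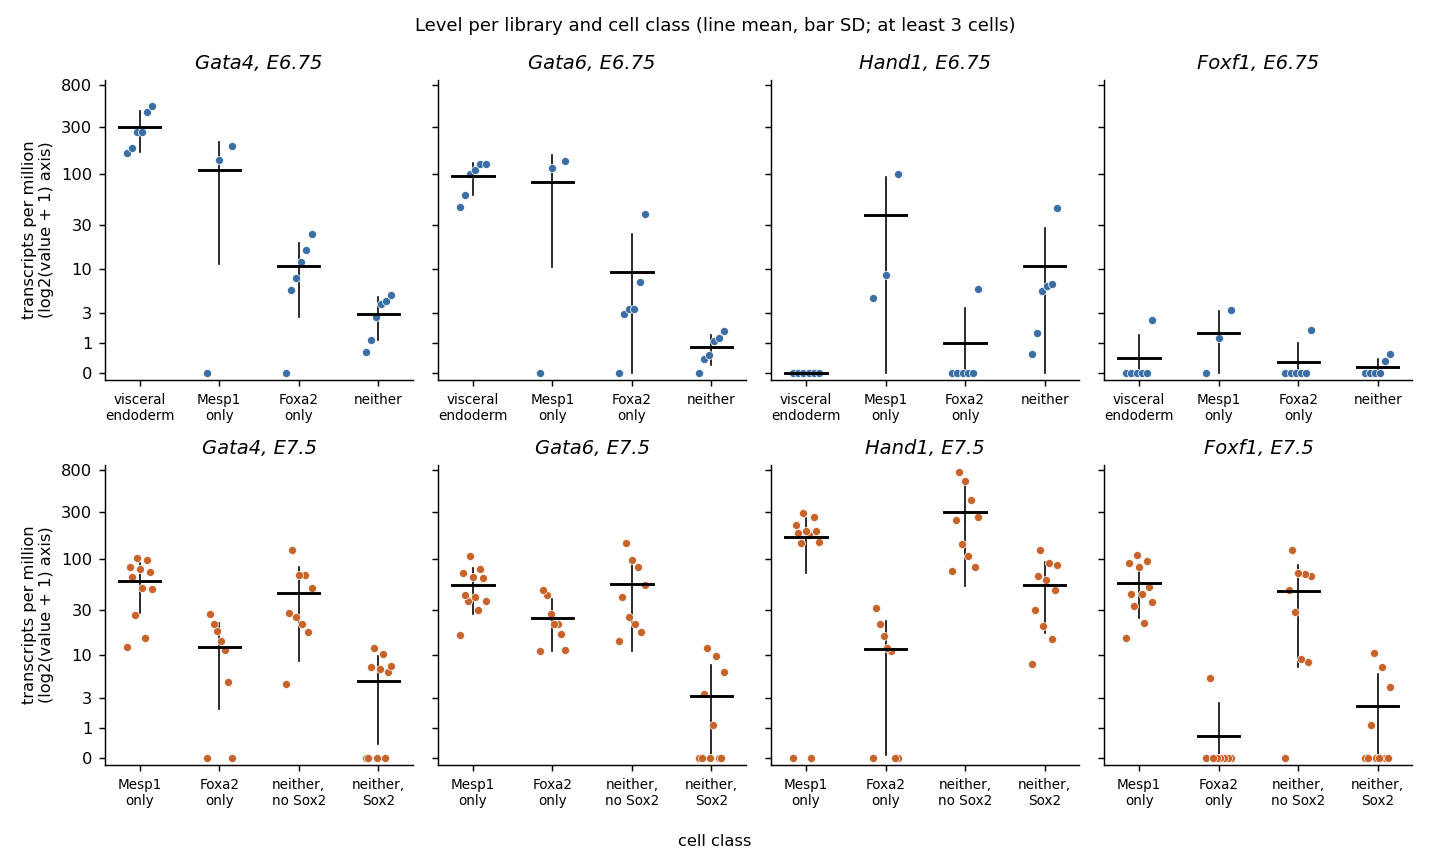
Level of each gene per library (points; at least 3 cells) by cell class at E6.75 (top, blue) and E7.5 (bottom, orange), in CPM on a log2(value + 1) axis, with means (lines) and SD (bars). Foxf1 in Foxa2 cells at E7.5 is at 0 in all libraries but replicate 8 (5.39 CPM), and Hand1 is at 0 in all 6 visceral endoderm sums.

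**Figure D4:**
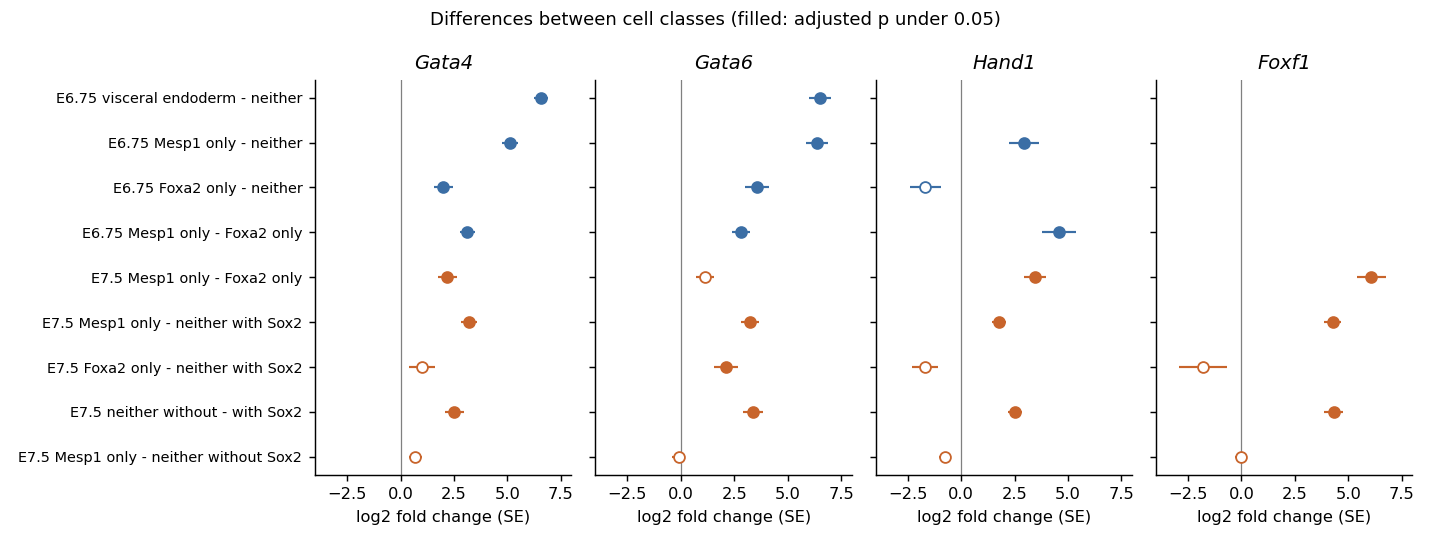
Log2 fold change (points) with its SE (bars) in class comparisons at E6.75 (blue) and E7.5 (orange), filled where the adjusted p is under 0.05. No point is drawn for Foxf1 at E6.75, which did not pass the filter on low counts, or for Hand1 in visceral endoderm. Visceral endoderm against Foxa2 cells is not shown. Gata6 is filled for E7.5 Foxa2 cells against Sox2 cells (2.12), where the other three genes are open, and no gene is filled for E7.5 Mesp1 cells against cells without Sox2.

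Cells with both Mesp1 and Foxa2 were few, 21 at E6.75 and 12 at E7.5, and only 2 libraries of each stage held at least 3 of them. Gata4 was at 39.6 and 84.4 CPM in these libraries at E6.75 and at 27.0 and 45.7 CPM at E7.5. Foxf1 was at 0 and 1.26 CPM at E6.75 and at 60.7 and 97.9 CPM at E7.5. No test was made on 2 libraries.

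Whether the gap between Mesp1 and Foxa2 cells differed between the stages was tested in the libraries that held both classes. None of the 4 genes passed, among 0.393% of 7627 genes that did, with differences of -1.14 for Gata4 (SE 0.65, adjusted p = 0.843), -1.55 for Gata6 (SE 0.61, adjusted p = 0.555) and -0.18 for Hand1 (SE 0.73, unadjusted p = 0.804 by edgeR). At an unadjusted p under 0.05 Gata6 would pass (p = 0.0165), and DESeq2 called none of the 4. The value for Foxf1 had an SE of 9.66 and gives no direction.

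Within Mesp1 cells, a comparison added after seeing the data set 11 E7.5 libraries against 3 of E6.75. Foxf1 rose from 1.51 ± 1.67 (SD, n = 3) to 56.8 ± 32.3 CPM (SD, n = 11), a log2 fold change of 4.82 (SE 0.71, adjusted p = 0.000193 by edgeR), where 11.3% of 6979 genes passed and 5.77% were higher. As counts this was 3 and 282 transcripts, a ratio of 31.4 with an exact 95% interval of 10.6 to 153.1. Hand1 rose by 2.03 (SE 0.64, adjusted p = 0.0403), but leaving out single libraries gave 1.40 to 4.46, and the call was lost without E6.75 replicate 2_13 or 2_9 or E7.5 replicate 1, 2, 3, 4, 10 or 11.

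Gata4 and Gata6 in Mesp1 cells showed no called difference between the stages, with log2 fold changes of -0.95 (SE 0.42, adjusted p = 0.165 by edgeR) and -0.70 (SE 0.40, adjusted p = 0.297). Without the 3 cells of E6.75 replicate 2_9, which held neither gene, they were -1.38 (adjusted p = 0.0153) and -1.10 (adjusted p = 0.0384). In those Mesp1 cells 6 of 8 tested paraxial mesoderm genes rose and 9 of 10 epiblast genes fell from E6.75 to E7.5.

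The 4 genes were often found together in E7.5 cells. Of the 427 cells outside visceral endoderm, 157 (36.8%) held none of them, 112 held 1, 54 held 2, 61 held 3 and 43 (10.1%) held all 4. All 4 were found in 27 of 125 Mesp1 cells (21.6%), in 11 of 113 cells with neither marker and no Sox2, in 2 of 129 Sox2 cells and in 0 of 48 Foxa2 cells. That 0 allows all 4 to be found together in up to 6.25% of such cells at their median depth of 35844 transcripts, and does not limit the share that expresses them. At E6.75 the corresponding figures were 371 of 504 cells with none and 2 with all 4.

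Among pairs at E7.5, Gata4 and Gata6 shared 96 cells against 53.7 expected from their detection rates within each library, and Hand1 and Foxf1 shared 78 against 47.7. Over the 6 pairs the ratio of shared to expected cells ran from 1.28 (Gata6 and Hand1, 88 against 68.7) to 1.95 (Gata4 and Foxf1, 68 against 34.9), and within Mesp1 cells from 1.16 to 1.55. Of the 97 Foxf1 cells, 78 (80.4%) held Hand1, while 40.6% of the Hand1 cells held Foxf1. Hand1 was the gene most often found alone, in 67 cells, against 7 for Foxf1. Cells with all 4 genes had a median of 45208 transcripts and cells with none 22900. After thinning to 2000 transcripts, Hand1 and Foxf1 shared 19 cells against 6.36 expected and Gata6 and Hand1 14 against 6.07, while the other pairs shared 2 to 7 cells each, with Gata4 and Gata6 at 4 against 1.72 and Gata4 and Foxf1 lowest at 2 against 1.38. At E6.75 Gata4 and Gata6 shared 31 cells against 14.01 expected.

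**Figure D5:**
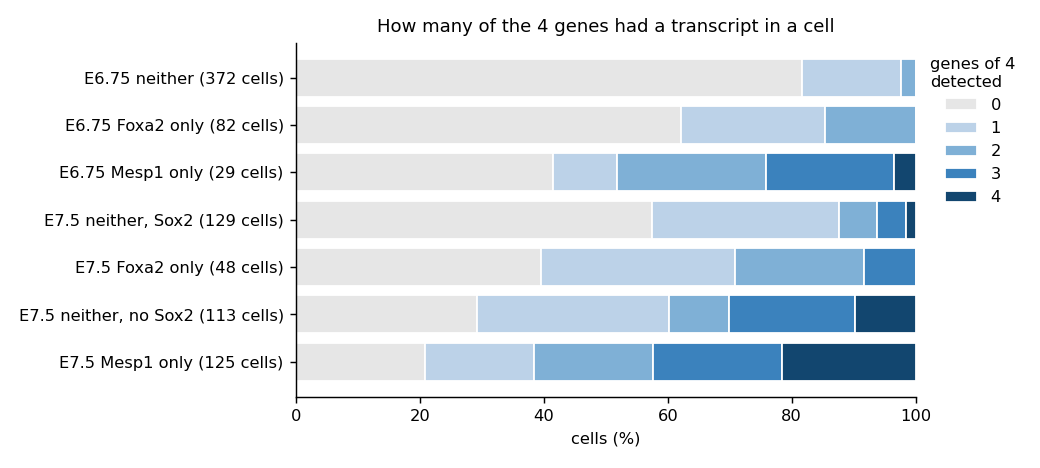
Share of cells (percent) in which 0 to 4 of the genes had a transcript, by stage and cell class outside visceral endoderm. All 4 were found in 21.6% of E7.5 Mesp1 cells and in 0 of 48 E7.5 Foxa2 cells.

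The E7.5 cells with a transcript of one gene were then compared with those without it in the same libraries. In cells with Foxf1, Hand1 was at 393 ± 219 CPM and in cells without at 35.0 ± 25.2 CPM (SD, n = 10 each), higher in 10 of 10 libraries, with a log2 fold change of 3.72 (SE 0.23, adjusted p = 6.41e-10 by edgeR). Gata4 was higher by 2.71 (adjusted p = 1.05e-07) and Gata6 by 2.22 (adjusted p = 3.88e-07), in 10 of 10 libraries each. In this comparison 11.3% of 6464 genes passed and 5.41% were higher with Foxf1.

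In cells with Hand1, Gata4 was at 58.1 ± 27.7 CPM and in cells without at 14.9 ± 15.5 CPM (SD, n = 10 each), higher in 10 of 10 libraries, with a log2 fold change of 2.23 (SE 0.24, adjusted p = 1.83e-06 by edgeR), where 3.04% of 6766 genes passed and 1.74% were higher. Gata6 was higher by 1.20 (SE 0.26, adjusted p = 0.00739) in 8 of 10, and at 0.95 (adjusted p = 0.0766) without replicate 2. Foxf1 was at 54.8 and 6.64 CPM, higher in 9 of 10 libraries, and did not pass the filter on low counts. Without the filter it was higher by 3.66 (adjusted p = 5.09e-44 by edgeR).

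Cells with Gata4 held more Gata6 (2.12, adjusted p = 4.14e-05 by edgeR) and more Hand1 (2.17, adjusted p = 2.90e-06) than cells without, where 8.05% of 6412 genes passed and 3.81% were higher. After thinning, the difference of Hand1 was 2.06 (adjusted p = 0.0514). Cells with Gata6 held more Gata4 (2.41, adjusted p = 3.41e-07) and more Hand1 (2.19, adjusted p = 2.56e-06), where 10.5% of 6112 genes passed and 5.07% were higher. Foxf1, which again did not pass the filter on low counts, was at 62.3 and 6.94 CPM by Gata4 and at 65.4 and 8.31 CPM by Gata6. Without the filter it was higher by 3.06 with Gata4 (adjusted p = 1.50e-38 by edgeR) and by 2.79 with Gata6 (adjusted p = 3.76e-35). The cells with a gene were deeper in each case, with medians of 34026 and 27632 transcripts for Hand1, 35867 and 28882 for Foxf1, 41315 and 23919 for Gata4, and 39958 and 25793 for Gata6.

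The genes with the largest differences in cells with Hand1 were Bmp4 (3.71), the homeobox genes Msx2 (3.69) and Msx1 (2.83), which respond to BMP, Prdm6 (3.64), a chromatin regulator of smooth muscle, and Spin2c (2.90). Bmp4 was at 161.8 ± 58.7 CPM with Hand1 and at 11.3 ± 3.52 CPM without (SD, n = 10 each; adjusted p = 1.40e-13 by edgeR). The lowest were Pcdh8 (-1.86), a protocadherin of paraxial mesoderm, Foxa2 (-1.60), Lrig3 (-1.43), Hes7 (-1.41), an oscillator of the presomitic mesoderm, and Fgf5 (-1.23), an epiblast ligand.

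In cells with Foxf1 the highest were Pmp22 (4.11), Hand1, Spin2c (3.36), Msx1 (3.16) and Msx2 (3.09), and the lowest Trh (-3.32), a hormone precursor gene, Jph4 (-3.29), Eras (-3.05), Sox3 (-2.80), a neural ectoderm factor, and Pim2 (-2.75). Pmp22 was at 149.7 ± 112.5 CPM with Foxf1 and 9.62 ± 7.73 CPM without (SD, n = 10 each; adjusted p = 1.17e-09 by edgeR).

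In cells with Gata4 the highest were Asb4 (2.53), the semaphorin and VEGF co-receptor Nrp1 (2.51), the atrial myosin light chain Myl7 (2.43), Twist1 (2.40), a mesenchymal factor, and the NODAL antagonist Lefty2 (2.35). In cells with Gata6 they were Nrp1 (3.77), Kdr (3.54), Stard8 (2.97), Myl7 (2.62) and Cer1 (2.58), a secreted antagonist of anterior endoderm. The epiblast genes Utf1 (-2.58 and -2.97) and Pou3f1 (-2.31 and -2.65) and the forkhead gene Foxb1 (-2.49 and -2.68) were among the 5 lowest for both. The remaining low genes were Nkx1-2 (-2.31) and Elavl3 (-2.16) with Gata4, and Sox2 (-2.71) and Pim2 (-2.63) with Gata6.

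Of 19 BMP pathway genes, 8 of the 16 tested were higher in cells with Hand1 and 0 lower, with a median log2 difference of 0.84 beside -0.01 over all genes tested. With Foxf1 it was 9 of 15 (median 0.75), with Gata4 8 of 14 (median 0.71) and with Gata6 4 of 12 (median 0.41), with 0 lower in each. Smad6, an inhibitor that BMP induces, was higher by 1.66 with Hand1 (adjusted p = 5.72e-05) and by 1.97 with Foxf1 (adjusted p = 6.79e-07). Of the 10 epiblast genes, 8 were lower with Hand1, 10 with Foxf1, and 9 each with Gata4 and Gata6. Both lists were chosen with earlier results of these data known, so these counts are description.

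The paraxial mesoderm genes did not follow one pattern. In cells with Hand1, 5 of 7 tested were lower, with a median of -1.17, in cells with Foxf1 1 of 6 was higher (Foxc2, 1.67, adjusted p = 0.00763), and in cells with Gata4 and Gata6 3 of 5 and 3 of 7 were higher. Cer1 was higher with Gata6 and lower with Foxf1 (-1.93, adjusted p = 0.000327). The epithelial keratins Krt8 and Krt18 were higher with Gata6 by 2.10 (adjusted p = 9.46e-07) and 1.77 (adjusted p = 1.65e-05). These 4 comparisons use the same cells, and the differences between them were not tested.

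Over the same 427 cells, the pattern most like that of Hand1 among 12003 genes was that of Pmp22 (Pearson r = 0.755 across cells, on the natural log of 1 plus transcripts per 10000), followed by Spin2c (0.738), Msx2 (0.734), Bmp4 (0.720) and Peg10 (0.705). For Foxf1 it was Hand1 (0.679), then Pmp22 (0.621), Bmp4 (0.604), Peg10 (0.579) and Nrp1 (0.577). For Gata6 they were Prdm6 (0.555), H19 (0.531), Nrp1 (0.517), Hand2 (0.496) and S100a10 (0.466), and for Gata4 they were Phlda2 (0.477), Hand2 (0.465), Rbms1 (0.458), Gata6 (0.447) and Hs3st3b1 (0.446). Cells of a library share its preparation, and deeper cells hold more genes, so these values describe the cells and carry no test.

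Fendrr, a long noncoding RNA of the lateral plate, starts from the opposite strand 1275 bases from Foxf1 (chromosome 8, 121054882 to 121083110). It had 0 transcripts in the E6.75 cells outside visceral endoderm. At E7.5 it was found in 16 of the 97 cells with Foxf1 (16.5%, 19 transcripts) and in 1 of 330 cells without (0.303%). All 17 cells with Fendrr also held Hand1, and 0 of the 235 cells without Hand1 held it.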

How the data were processed

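The deposited tables hold expected counts: the authors counted molecular identifiers per gene and barcode and corrected them for collisions, and every value fits that correction for 4096 identifiers within 4.73e-11. Demultiplexing and alignment tools were bcl2fastq 2.17.1.14 and BWA 0.6.2-r126, per the submitters' processing notes. The counter, its use of strand, the genome build and the annotation are not given in the sources used here; positions come from GENCODE M21. Of the barcode columns of each table, the 96 that hold the library were used; 0 value columns had no sample. Of 23093 features, 74 spike-ins and 22 mitochondrial genes were left out of depths and tests.

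Expected counts were rounded in each cell and then summed per library and cell class (at least 3 cells). edgeR 4.0.16 in R 4.3.3 (TMM, filterByExpr, quasi-likelihood F test) tested all genes, with Benjamini-Hochberg adjustment and a threshold of 0.05. The library was a block in comparisons within a stage, since classes of 1 library share its cells' source. Genes that define a class were left out. DESeq2 1.42.0 was an alternative. Scripts were tested on simulated data. Shares used Python 3.11.15, exact binomial intervals and thinning to 2000 transcripts. Counting intervals cover counting error only. No doublet caller was run; an alternative left out those more than 3 times as deep as the median of their library. Libraries of a stage differed beyond sampling noise (chi-square per degree of freedom 2.11 to 19.2), so each was 1 replicate.

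The genes named are the 4 members, the 5 genes most like each, and, by cells with and without a member, the 5 highest and 5 lowest past the threshold with a mean of at least 20 CPM and 1 sign in 80% of libraries; genes of the lists are examples. The members and lists were chosen with earlier results of these data known.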

Additional observations from a re-analysis of the deposited data

Results flagged for a closer look

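Among 27 groups of 4 to 10 libraries, 6 had 1 library far above the others. The flag sets the gap to the next library against the whole range, and its rate of about 1 in 20 assumes normal values. A group in which only 1 library held the gene is flagged whatever the value, so the 6 cannot be set against that rate. Gata6 stood at 39.2 CPM in the E6.75 Foxa2 cells of replicate 2_14, where 37 of 39 transcripts came from 1 cell, and the next library held 7.18 CPM. Hand1 stood at 44.9 CPM in E6.75 cells with neither marker in replicate 2_12, the library with most of the Hand1 transcripts beside extraembryonic ectoderm genes. Hand1 in E6.75 Foxa2 cells was seen in replicate 2_13 alone, at 5.99 CPM, with 7 of its 10 transcripts beside extraembryonic ectoderm genes. Foxf1 was seen in a single library in 3 groups, at 1.71 CPM in E6.75 Foxa2 cells (replicate 2_12), at 2.42 CPM in E6.75 visceral endoderm (replicate 2_9) and at 5.39 CPM in E7.5 Foxa2 cells (replicate 8), each from 1 transcript.

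Transcripts of the 4 genes also appeared outside the cells used, above the limit that a count of 0 allows. In barcodes that hold no cell of the library, Hand1 had 4 transcripts at E6.75 and 11 at E7.5, and Gata4 and Foxf1 had 7 each at E7.5. In the 723 E7.5 cells under 2000 transcripts, Hand1 had 29, Gata4 14, Gata6 11 and Foxf1 8. The kept E7.5 cells held 2071, 490, 574 and 467.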

How the results depend on the processing

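Of the alternatives for the 4 genes, 985 kept direction and side of the threshold, 34 lost a call, 19 gained one and 16 turned direction; the cause was not tested. Values below are log2 fold changes by edgeR unless named, with adjusted p in parentheses.

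Between the stages, Gata6 lost its call with E6.75 libraries of prefix 2 (1.36, 0.0580) and by thinned shares (4.52 points, exact permutation p = 0.0720). Leaving out 1 library gave 0.90 to 1.77 for Gata4, 1.63 to 2.43 for Gata6, 3.27 to 4.17 for Hand1 and 6.22 to 6.74 for Foxf1. No paired analysis was possible because each embryo was collected at 1 stage only.

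Among E6.75 classes, for Foxa2 minus neither, Gata4 lost its call by DESeq2 (1.90, 0.403), with detection at 2 transcripts (1.71, 0.0719) and without extraembryonic ectoderm cells (1.76, 0.0697), an alternative added after seeing the data, and leaving out 1 library gave 1.70 to 2.20; Gata6 then ran from 2.64 to 3.82 and Hand1 from -6.61 to -0.40, and Hand1 gained a call without a filter (-1.76, 0.0484). Over all alternatives of Foxa2 minus neither, Gata4 ran from 1.70 to 3.09 and Gata6 from 2.64 to 4.35. For Mesp1 minus Foxa2, DESeq2 lost Gata6 (2.76, 0.0686) and Hand1 (5.18, 0.346), and leaving out 1 library gave 2.31 to 10.45 for Hand1. For Mesp1 minus neither, DESeq2 lost Hand1 (2.37, 0.827), with 0.70 to 3.84 without 1 library. Hand1 in visceral endoderm, at 0, gave values that depend on the tool: against Foxa2 cells -15.27 by DESeq2 (5.27e-18) and -4.42 to 0.95 without 1 library, turned without replicate 2_13; against neither -18.08 by DESeq2 (1.44e-28), -5.49 without a filter (0.00616), both gained calls, and -6.11 to -4.67 without 1 library.

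Among E7.5 classes, Foxa2 minus Sox2 cells gave Gata6 1.81 (0.194) with at least 5 cells a class and 1.90 to 2.57 without 1 library, and Hand1 gained a call without a filter (-1.75, 1.00e-06). Mesp1 minus Foxa2 gained a call of Gata6 without a filter (1.21, 0.00327), with 0.69 to 1.55 without 1 library. Mesp1 minus cells without Sox2 turned direction for Foxf1 by DESeq2 (0.0398, p 0.987), with detection at 2 transcripts (0.27, p 0.859) and without a filter (0.0223, p 1), with -0.31 to 0.34 without 1 library, and for Gata6 by DESeq2 (0.0327, p 0.990) and with detection at 2 transcripts (0.11, p 0.988), with -0.36 to 0.41 without 1 library; Hand1 gained a call without a filter (-0.69, 0.000272). In Mesp1 cells between stages, Gata4 gained a call with detection at 2 transcripts (-1.65, 0.0112), without a filter (-1.01, 0.0182) and without the deepest cells (-1.34, 0.0208), with -1.38 to -0.46 without 1 library; Gata6 gained one with detection at 2 transcripts (-1.45, 0.0245) and without the deepest cells (-1.05, 0.0479), with -1.10 to -0.33; Hand1 lost its call by DESeq2 (2.10, 0.224), with detection at 2 transcripts (1.62, 0.148) and without the deepest cells (1.72, 0.171), with 1.40 to 4.46. The stage by class difference of Hand1 turned with detection at 2 transcripts (0.15, p 1) and ran from -4.39 to 2.35 without 1 library. By cells with and without Gata4, thinning took Hand1 to 2.06 (0.0514); by Hand1, Gata6 ran from 0.95 to 1.43 without 1 library.

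With no replicate block, Gata4 in Foxa2 minus neither was 2.19 (0.116), Hand1 in Mesp1 minus Foxa2 at E6.75 4.32 (0.0827) and in Mesp1 minus neither 1.92 (0.350), Gata6 by Hand1 1.15 (0.199), and Foxf1 in Mesp1 minus cells without Sox2 0.0777; among the 4 genes the block changed no other call.

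The number of genes called moved by over 1.5 times in 58 of 331 refits. Without a filter it rose from 38 to 86 for Foxa2 minus neither, 81 to 156 for Mesp1 minus Foxa2 and 197 to 307 for Mesp1 minus neither at E6.75; at E7.5 from 266 to 435 for Foxa2 minus Sox2 cells, 584 to 892 for Mesp1 minus Foxa2 and 178 to 315 for Mesp1 minus cells without Sox2; from 206 to 494 by Hand1, 730 to 1460 by Foxf1, 516 to 964 by Gata4 and 640 to 1216 by Gata6; and from 30 to 71 for stage by class. With detection at 2 transcripts the E6.75 counts of 38, 81 and 197 became 71, 212 and 491, that by Hand1 406, that of Foxa2 minus Sox2 cells 172, that of stage by class 14 and that of Mesp1 cells between stages 226, from 788. DESeq2 gave 16 for Foxa2 minus neither, 51 for Mesp1 minus Foxa2 at E6.75 and 19 for stage by class. With visceral endoderm at 50 per 10000, 38 became 223, 81 became 159 and 3588 for visceral endoderm minus Foxa2 became 2239. With no replicate block, the counts were 24 for Foxa2 minus neither, 45 by Hand1 and 4 for stage by class. At least 5 cells a class gave 141 for Foxa2 minus Sox2 cells, and leaving out the deepest cells 444 for Mesp1 cells between stages. Thinning to 2000 transcripts left 619 calls of 3956 for the stage and 155 or fewer in each other comparison. Leaving out 1 library gave 22 to 47 for Foxa2 minus neither (22 without replicate 2_12) and 79 to 248 for Mesp1 minus neither (79 without 2_14). At E7.5 it gave 114 to 291 by Hand1 (114 without replicate 1, 125 without 2), 154 to 340 for Foxa2 minus Sox2 cells (154 without 4, 170 without 3), 102 to 194 for Mesp1 minus cells without Sox2 (102 without 1) and 389 to 618, from 585, for cells without minus with Sox2 (389 without 4). It gave 333 to 833 for Mesp1 cells between stages (333 without 2_13, 449 without 2_9) and 15 to 35 for stage by class (15 without 2_13, 17 without E7.5 replicate 4). Foxf1 at E6.75 rested on 7 transcripts outside visceral endoderm, in the deeper stage, so its values there carry a wide counting error, and E6.75 Mesp1 cells numbered 29.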

Other observations

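Of all Gata6 transcripts in E7.5 cells, 52.8% were in Mesp1 cells (29.1% of cells), 31.0% in cells with neither marker and no Sox2 (26.3% of cells) and 9.58% in Foxa2 cells (11.2% of cells). For Gata4 these shares were 64.5%, 21.8% and 4.49%. For Hand1 they were 43.0%, 39.9% and 1.497%. The single cell richest in Hand1 held 82 transcripts of it, and the one richest in Foxf1 held 27.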
